A study of Drosophila melanogaster with 16 samples.

Results

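Cyclins and the enzymes that act around mitosis were followed through the RNA-seq of Drosophila S2 cells treated with imp dsRNA. The 10 genes were taken by their symbols, CycA, CycB, CycB3, CycD, CycE, stg, polo, aur, fzy and dap, from the 9977 genes of the count table, and all 10 were found. S2 is a cultured fly line of embryonic origin with traits of blood cells, and it divides continuously in culture. Imp is the fly member of the IMP family of RNA-binding proteins, and the experiment asked which transcripts change in level when it is depleted. One group received a mixture of dsRNAs against the coding region of imp, and the other received dsRNA against firefly luciferase, which has no counterpart in the fly genome. Both groups were S2 cells kept at 26 °C, given dsRNA at 40 µg/ml with daily boosts, and harvested at day 3 for sequencing of poly(A) RNA. Each group had 3 libraries, and the replicates were performed on different days. Each imp dsRNA library was paired with the luciferase dsRNA library of the same replicate number, though the labels do not state the day. All values come from this single line, and in bulk RNA fewer cells in a phase of the cycle cannot be told apart from less RNA per cell.

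Cyclins are the regulatory subunits of cyclin-dependent kinases (Cdks), and their rise and fall drives the cell cycle. In flies, cyclin D with Cdk4 and cyclin E with Cdk2 act in G1 and at the entry into S phase, whereas cyclins A, B and B3 act with Cdk1 in G2 and mitosis. The activity of Cdk1 is released by the Cdc25-type phosphatase String, and mitosis ends when the anaphase-promoting complex, activated by Fizzy, marks the mitotic cyclins for degradation. Much of this control acts on the proteins, which were not measured here.

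Library totals ran from 1081882 to 5463535 counts, with the lowest in imp dsRNA replicate 2. Levels are given as CPM (counts per 1000000 counts of the library), scaled between libraries by the TMM method. The target of the dsRNA, Imp, stood at 233, 324 and 455 CPM in imp dsRNA replicates 1 to 3 and at 660, 738 and 814 CPM in the luciferase dsRNA libraries. It was lower in 3 of 3 pairs, by a log2 fold change of -1.18 (SE 0.18), although its Benjamini-Hochberg adjusted p over the 6526 genes tested was 0.113 in the quasi-likelihood test of edgeR. Imp was called by DESeq2 (adjusted p 0.000184), by edgeR with no filter on low counts (2.98e-06) and by edgeR without replicate 3 (1.57e-12), and was not called in the other 6 alternatives (adjusted p from 0.127 to 0.9998). The libraries carried blood cell markers, with the 9 markers summing to 1044 to 1283 CPM after imp dsRNA and 878 to 1191 CPM after luciferase dsRNA, most of it from srp. Of these markers nimC1 and lz were at or near 0, and the ovarian somatic, germline and fat body markers summed to at most 2.18, 2.01 and 0.785 CPM in any library. Hml (2.92 to 9.03 CPM), He (5.09 to 17.2 CPM) and eater (3.21 to 29.8 CPM) were also low among the blood cell markers. The neuronal markers summed to between 91.9 and 136 CPM over the 6 libraries, mostly from elav and brp. The muscle markers summed to between 33.8 and 89.4 CPM, nearly all of it from Mef2.

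None of the 10 cell cycle genes passed the test after imp dsRNA. The main contrast called 0 of 10 at an adjusted p under 0.05 by edgeR, where the background was 0% of the genes tested, and 0 of 10 at an unadjusted p under 0.05, where it was 2.88%. DESeq2 and limma-voom also called 0 of 10 and found 0 of 10 at an unadjusted p under 0.05. Every adjusted p of edgeR was 0.999. The median log2 fold change of the 10 was -0.13, beside -0.0067 over all genes tested, and 6 of the 10 lay below 0, beside 51.5% of all genes. The most negative estimate was that of aur, whose 95% interval reached down to 0.540-fold, and the most positive was that of stg, whose interval reached up to 1.61-fold. The fit left 2 residual degrees of freedom. The SEs were derived from the fold change and its F statistic. The intervals used the total degrees of freedom of the test, which include those borrowed across genes. The members are not independent of each other, as they come from the same 6 libraries.

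**Figure D1:**
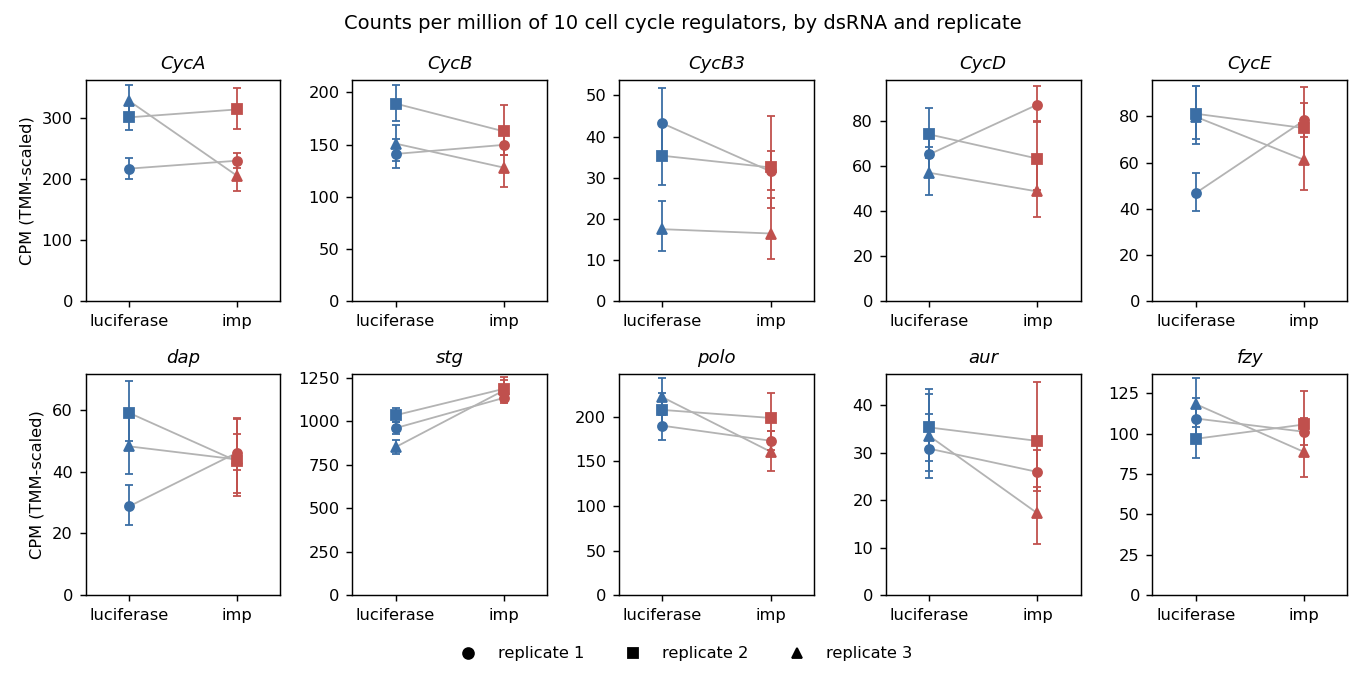
TMM-scaled CPM of each gene (vertical axes, each starting at 0) after luciferase dsRNA (blue) and imp dsRNA (red). Grey lines join libraries with the same replicate number and bars are exact 95% Poisson intervals, which cover counting error only. Only in the stg panel do the colours separate, with the imp dsRNA libraries at 1136 to 1188 CPM and the luciferase dsRNA libraries at 852 to 1036 CPM.

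CycD encodes the partner of Cdk4, which links growth signals to the cycle. Its level was 87.1, 63.2 and 48.6 CPM in imp dsRNA replicates 1, 2 and 3 and 65.0, 73.9 and 56.9 CPM in the luciferase dsRNA libraries. The ranges overlapped, and the imp dsRNA library was the higher of its pair only in replicate 1. The fitted log2 fold change was 0.023 (SE 0.19, 95% interval -0.39 to 0.44).

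CycE encodes the partner of Cdk2 at the start of S phase. It was at 78.3, 74.9 and 61.2 CPM after imp dsRNA and at 46.9, 81.2 and 79.8 CPM after luciferase dsRNA. The low luciferase dsRNA replicate 1 set the wide spread of the control group, 69.3 ± 19.4 CPM (SD, n = 3) against 71.5 ± 9.05 CPM (SD, n = 3) after imp dsRNA. The fitted log2 fold change was 0.11 (SE 0.22, 95% interval -0.36 to 0.58).

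dap encodes Dacapo, the p21/p27-type inhibitor of the cyclin E kinase. Its 3 imp dsRNA libraries lay close together, at 46.2, 43.4 and 43.9 CPM, while the luciferase dsRNA libraries were at 28.7, 59.1 and 48.2 CPM. As for CycE, the lowest of the 6 values was in luciferase dsRNA replicate 1, and the control libraries lay both above and below the treated ones. The log2 fold change of dap was 0.070 (SE 0.23, 95% interval -0.42 to 0.56).

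In the pair of replicate 1 the log2 ratio of imp dsRNA over luciferase dsRNA was 0.42 for CycD, 0.73 for CycE and 0.67 for dap. In the pair of replicate 2 it was -0.22, -0.11 and -0.44 for the same genes, and in that of replicate 3 it was -0.22, -0.38 and -0.13. Each of the 3 genes was thus higher in one pair and lower in the others, an order of signs that the mitotic cyclin gene CycB had as well (0.086, -0.22 and -0.24), and no pattern over the pairs was tested. Without replicate 1 the fitted log2 fold changes of the 3 turned to -0.23 for CycD, -0.25 for CycE and -0.30 for dap. Per kilobase of exon, the level of CycE was between 0.689 and 0.867 times that of dap in all 6 libraries, with overlapping ranges. Their order depended on the length used. With the longest annotated transcript as the length, the means were 17.83 CPM per kb for CycE and 17.75 CPM per kb for dap.

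**Figure D2:**
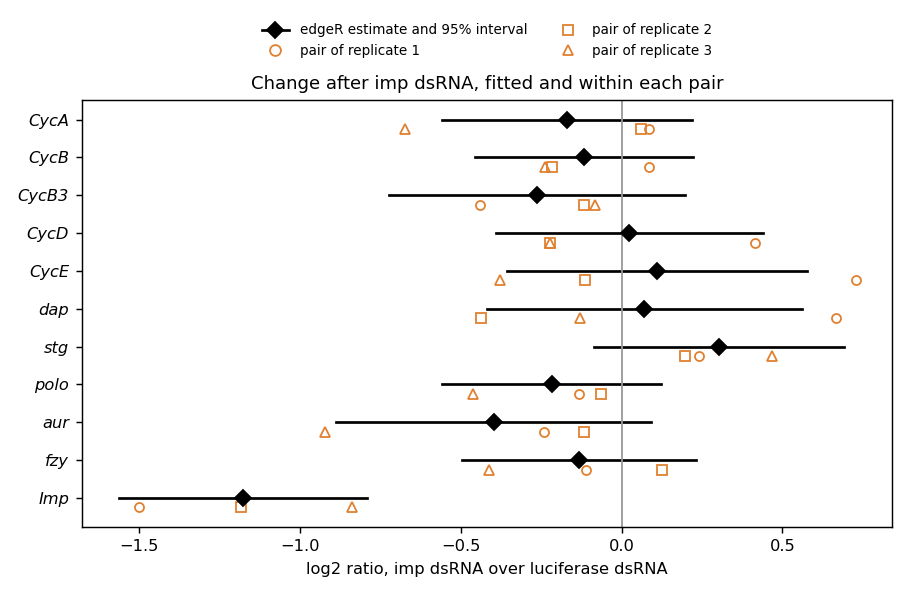
Log2 ratio of imp dsRNA over luciferase dsRNA (horizontal axis) for each gene and for Imp. Black diamonds and lines are edgeR estimates with 95% intervals, and open orange symbols are the log2 ratios of the 3 pairs (pseudocount of 1 CPM). The interval includes 0 for each of the 10 genes, and CycB, CycD, CycE and dap have the pair of replicate 1 on the right of 0 and the other pairs on the left.

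CycA encodes the cyclin that flies cannot do without for mitosis. After imp dsRNA it was at 230, 314 and 206 CPM and after luciferase dsRNA at 217, 301 and 329 CPM. The libraries of a pair were close in replicates 1 and 2 and far apart in replicate 3, where the pair's log2 ratio was -0.67. The fitted log2 fold change of -0.17 (SE 0.18, 95% interval -0.56 to 0.22) rested on that pair, since without replicate 3 it was 0.075.

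CycB, whose product drives mitosis with Cdk1, was at 150, 163 and 128 CPM after imp dsRNA and at 141, 189 and 151 CPM after luciferase dsRNA. It was higher after imp dsRNA in the pair of replicate 1 and lower in the other pairs, with overlapping ranges. The log2 fold change was -0.12 (SE 0.16, 95% interval -0.46 to 0.22).

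CycB3 encodes a further mitotic cyclin, which acts late in mitosis. Its counts were low, down to 21 reads in imp dsRNA replicate 3. Its level was 31.6, 32.5 and 16.5 CPM after imp dsRNA and 43.2, 35.4 and 17.5 CPM after luciferase dsRNA. Each treated library lay below its partner, but the gap was smaller than the gap between replicate 3 and the other replicates of either treatment. The log2 fold change of CycB3 was -0.26 (SE 0.21, 95% interval -0.72 to 0.20).

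Summed per kilobase of exon, the mitotic cyclins CycA, CycB and CycB3 reached 139, 172 and 118 CPM per kb after imp dsRNA and 136, 178 and 168 CPM per kb after luciferase dsRNA. The sum of CycD and CycE was 51.0, 40.6 and 31.9 CPM per kb after imp dsRNA and 35.8, 46.2 and 39.0 CPM per kb after luciferase dsRNA. The mitotic sum, which covers more genes, was above the G1 sum in each of the 6 libraries. CycB3 alone lay below CycD in each library. The ratio of the sums was 2.72, 4.24 and 3.70 in the treated libraries and 3.79, 3.84 and 4.31 in the controls. These ranges overlapped, so the balance between the cyclin classes did not separate the treatments.

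stg encodes String, the Cdc25-type phosphatase that removes the inhibitory phosphates from Cdk1 and so permits entry into mitosis. Its transcript was by far the most abundant of the 10. After imp dsRNA it stood at 1136, 1188 and 1179 CPM, and after luciferase dsRNA at 962, 1036 and 852 CPM. Each treated library lay above each control library, and stg was the 1 gene of 10 whose groups did not overlap, where 6.19% of all genes tested had groups that did not overlap. The means were 1168 ± 27.7 CPM (SD, n = 3) and 950 ± 92.5 CPM (SD, n = 3). The fitted change was 1.23-fold (95% interval 0.942 to 1.61), a log2 fold change of 0.30 (SE 0.18) for which the quasi-likelihood test of edgeR gave an unadjusted p of 0.117 and a Benjamini-Hochberg adjusted p of 0.999. Over the 9 alternative fits the estimate ran from 0.22 to 0.36. As stg was higher in each pair, a kept sign in refits of the same libraries adds no support.

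The same contrast can be read within each library, with no scaling between libraries. This ratio was chosen after the values were seen and is given as a description. The counts of stg were 1.23, 1.16 and 1.53 times the summed counts of the other 9 genes after imp dsRNA, and 1.102, 0.959 and 0.807 times after luciferase dsRNA. The treated libraries were the higher ones, with replicate 3 the farthest apart and the nearest values of the groups 1.16 and 1.102. As the ratio holds the same stg counts as above, it is no second observation. The ratio was not tested, and it cannot say whether stg or the others differed.

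polo encodes the founding Polo kinase, needed for spindle function and mitotic progression. Its level was 173, 199 and 161 CPM after imp dsRNA and 190, 208 and 222 CPM after luciferase dsRNA. The treated library was the lower in each pair, although treated replicate 2 lay above control replicate 1. The log2 fold change was -0.22 (SE 0.16, 95% interval -0.56 to 0.12).

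aur encodes Aurora A, a kinase of the centrosomes and the spindle poles. It was at 26.0, 32.5 and 17.3 CPM after imp dsRNA and at 30.9, 35.4 and 33.6 CPM after luciferase dsRNA. The control libraries lay close together, and the low treated replicate 3, with 22 reads, gave the pair's log2 ratio of -0.92 against -0.24 and -0.12 in the others. Its log2 fold change of -0.40 (SE 0.23, 95% interval -0.89 to 0.092, unadjusted p 0.103) was the most negative of the 10, and without replicate 3 it was -0.20.

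fzy encodes Fizzy, the Cdc20-type activator of the anaphase-promoting complex. It stood at 101, 106 and 88.6 CPM after imp dsRNA and at 109, 96.8 and 118 CPM after luciferase dsRNA. The groups overlapped, and the pairs differed in sign. The log2 fold change was -0.13 (SE 0.17, 95% interval -0.50 to 0.23).

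Over the 10 genes, 4 had the same sign in the 3 pairs, beside 23.4% of all genes tested. These were stg, higher in each pair, and CycB3, polo and aur, lower in each pair, and 3 of 10 stands beside 12.2% of all genes that were lower in each pair. The pairs themselves were unlike each other. The median log2 ratio of the members was 0.085 in the pair of replicate 1, -0.12 in that of replicate 2 and -0.31 in that of replicate 3, while over all genes it was -0.0044, 4.7e-05 and -0.015. In the pair of replicate 3 each member except stg was lower in the imp dsRNA library, which also had the lowest TMM factor of the 6, 0.911. Without replicate 3 the median of the members was 0.034 and 5 of 10 lay below 0. The part of that library in the result was not tested beyond leaving the pair out.

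The replicate number was taken to mark the experiment day, which the labels do not state. On that reading the same fit gave a test of differences between the days with treatment held constant. CycB3 differed most between days, and it differed in both treatments. Its mean was 37.4 CPM over the libraries of replicate 1, 33.9 CPM over those of replicate 2 and 17.0 CPM over those of replicate 3, and the fitted log2 difference of replicate 3 from replicate 1 was -1.13 and from replicate 2 -0.996. The day test gave CycB3 an unadjusted p of 0.00289 but, after Benjamini-Hochberg adjustment, 0.0741 in the quasi-likelihood test of edgeR. The call of CycB3 depended on the fit. It was made with no filter on low counts (adjusted p 0.0054), without replicate 2 (0.0356) and with no treatment term (0.0428), and the adjusted p over the other alternatives ran from 0.0814 to 0.745. Without replicate 3 the range of CycB3 between days was 0.145 on the log2 scale. The exact 95% Poisson intervals of its 2 lowest libraries, 10.2 to 25.2 and 12.3 to 24.3 CPM, cover counting error only.

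No member was called between days in the fit with all libraries, 0 of 10 beside 3.17% of all genes at an adjusted p under 0.05, and 1 of 10, CycB3, beside 14.6% at an unadjusted p under 0.05. DESeq2 and limma-voom called 0 of 10 and had 1 of 10 at an unadjusted p under 0.05. CycD had the next widest range, with day means of 76.1, 68.6 and 52.8 CPM, and its lowest library of each treatment was also in replicate 3. CycA had day means of 224, 308 and 267 CPM, and it was called only when replicate 3 was left out (adjusted p 0.0295 by edgeR). At the other end, fzy varied by 0.063 and stg by 0.15 on the log2 scale between days. Among the blood cell markers eater was called between days, at 29.8 and 19.5 CPM in the libraries of replicate 3 and between 3.21 and 6.49 CPM in the others. The marker sum was 961, 1206 and 1155 CPM over the days, and the part of these markers in the day differences was not tested.

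**Figure D3:**
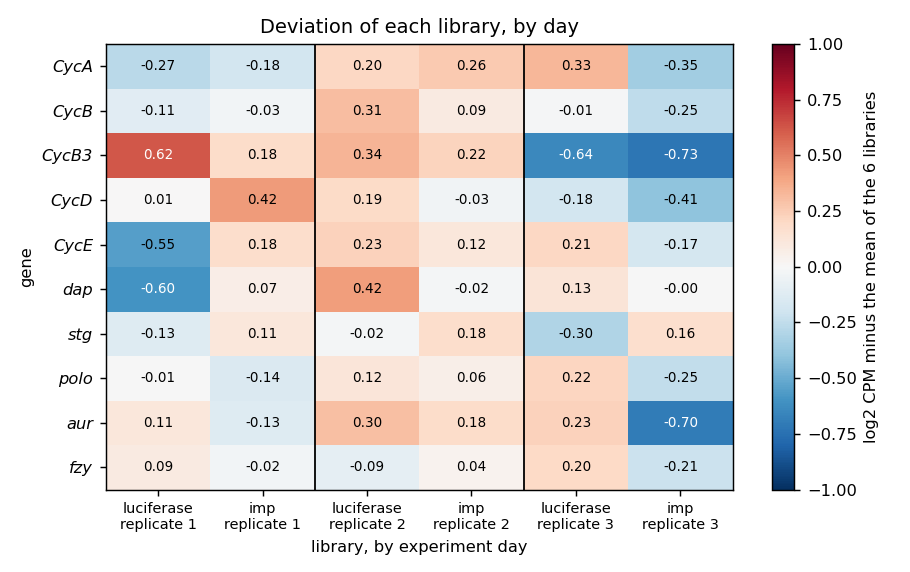
Deviation of each library from the mean of the 6 libraries, as log2 CPM with a prior count of 2, for each gene (rows) in each library (columns, grouped by replicate number, taken as the experiment day). Red cells are above and blue cells below the gene's mean. CycB3 is low in both libraries of replicate 3, CycE and dap are low in luciferase dsRNA replicate 1, and aur is low in imp dsRNA replicate 3.

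Per kilobase of exon, the 10 genes spanned a 33.8-fold range of levels. stg was the highest, at a mean of 346 CPM per kb over the 6 libraries (range 278 to 388), above 96.2% of the genes tested. CycA followed at 91.2 CPM per kb (range 70.4 to 113), so that stg stood 3.79 times above the next member, with no overlap. polo was at 64.5 CPM per kb (range 54.0 to 74.5), fzy at 51.8 CPM per kb (range 44.4 to 59.3) and CycB at 50.4 CPM per kb (range 42.0 to 62.1). A second gap separated CycB from CycD, whose mean was 26.8 CPM per kb (range 19.8 to 35.5). Below it came aur at 18.5 CPM per kb (range 10.9 to 22.4), dap at 17.8 CPM per kb (range 11.3 to 23.3) and CycE at 13.9 CPM per kb (range 9.29 to 16.1). CycB3 was the lowest, at 10.2 CPM per kb (range 5.71 to 15), above 28.3% of the genes tested. All other neighbours in this order overlapped in range, and with the longest transcript as the length fzy and CycB changed places, as did dap and CycE.

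**Figure D4:**
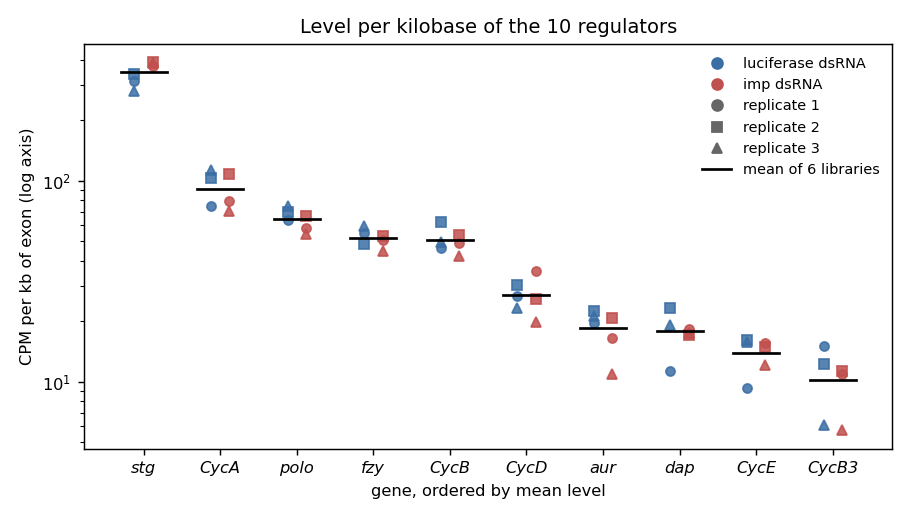
Level of each gene per kilobase of exon (vertical log axis, CPM per kb) in each library, with genes ordered by their mean (black line, 6 libraries). stg lies at 278 to 388 CPM per kb, apart from the other 9 genes, and CycB3 has the widest relative range, 5.71 to 15 CPM per kb.

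The 10 genes together took between 0.176% and 0.227% of the counts of a library. stg alone made up between 44.7% and 60.5% of these counts. The coefficient of variation over the 6 libraries was lowest for fzy, at 9.95%, where counting error alone gives 7.06%. It was highest for CycB3, at 35.6%, where counting error gives 12.9%. stg was the best measured, with between 1316 and 6302 counts per library and a counting error of 2.24%, beside an observed 12.7%.

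The genes lie apart from each other in BDGP6, a newer annotation than that behind the counts. stg spans chromosome arm 3R from 29251826 to 29255800 on the minus strand, CycB3 the same arm from 24867934 to 24870816 on the minus strand, and aur (aurA in BDGP6) the same arm from 11963124 to 11964826 on the plus strand. CycA lies on 3L from 11826719 to 11833578 on the minus strand and polo on 3L from 20309654 to 20313466 on the plus strand. CycE lies on 2L from 15727581 to 15748150 on the minus strand and fzy on 2L from 16310956 to 16313097 on the plus strand. CycB lies on 2R from 22803521 to 22806948 on the minus strand, dap on 2R from 9712321 to 9716256 on the plus strand, and CycD on X from 15906822 to 15909676 on the minus strand. All 10 are annotated as protein-coding, and none shares bases with another gene on its own strand. On the opposite strand CycA overlaps CG7264, aur overlaps CG12213, fzy overlaps cact, and CycE overlaps a pair of non-coding RNAs. Reads were counted by strand, so such a partner adds reads only where strand was misassigned.

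The members were set beside a wider list of cell cycle genes, of which 73 of 74 matched a row and 70, the 10 members included, had enough counts to be tested. Of these 70, 0 were called after imp dsRNA by edgeR (0% of all genes tested) and 1 had an unadjusted p under 0.05 (2.88% of all genes), and 45 lay below 0 with a median log2 fold change of -0.061. Without the members, 39 of 60 lay below 0 and the median was -0.050, beside -0.0067 over all genes. Between days 0 of 70 were called, beside 3.17% of all genes, and 4 had an unadjusted p under 0.05, beside 14.6%.

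By role, and counted with the members, the lists differed in how many genes lay below 0, beside 51.5% of all genes tested. Of 14 tested mitotic cyclins, Cdk1 partners and switches, 12 lay below 0 (median -0.11), as did 9 of 10 mitotic kinases and passengers (median -0.19) and 12 of 15 genes of the anaphase-promoting complex and separase (median -0.13). The numbers below 0 ran from 9 to 13, from 7 to 10 and from 10 to 14 over the alternatives, in which the number of genes tested varied too. Without the members, 9 of 10, 7 of 8 and 11 of 14 genes of these lists lay below 0 in the main fit. Spindle assembly checkpoint genes were split, with 5 of 10 below 0 (median 0.052), as were G1 and S phase genes, with 5 of 12 below 0 (median 0.0071). Of 9 other cyclins and their kinases 2 lay below 0 (median 0.039). The medians of these last lists changed sign when a replicate was left out, and no list was tested as a set.

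In the list of Cdk1 switches, the end opposite to stg was held by Myt1, which encodes a kinase that places inhibitory phosphates on Cdk1. Myt1 was at 10.6, 9.03 and 14.1 CPM after imp dsRNA and at 17.4, 17.7 and 16.1 CPM after luciferase dsRNA. Its treated libraries all lay below the control libraries, on as few as 10 reads in imp dsRNA replicate 2. Over all genes tested, 6.19% had groups that did not overlap, as did 5 of the 70 tested genes of the wider list. Of the other Cdk1 switches in the list, wee (log2 fold change -0.21) and twe (0.013) had groups that overlapped and pairs of both signs. The log2 fold change of Myt1 was -0.62 (SE 0.27) and edgeR gave it an unadjusted p of 0.0409 and a Benjamini-Hochberg adjusted p of 0.999. The CPM of stg was 107, 132 and 83.5 times that of Myt1 after imp dsRNA and 55.1, 58.6 and 53.1 times after luciferase dsRNA, a ratio chosen after the values of both were seen and not tested. Since stg lay higher and Myt1 lower in every treated library, this ratio had to separate the groups and adds no support.

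The ends of the other lists did not pass the test either. Among G1 and S phase genes the highest log2 fold change was 0.17 for E2f, which encodes a transcription factor of S phase genes, and the lowest was -0.64 for rux, which encodes the inhibitor Roughex of the mitotic cyclin kinases and had only 5 to 33 reads per library. Among mitotic kinases Map205, which encodes a microtubule-associated protein that binds Polo, was highest at 0.050, and aur was lowest. In the anaphase-promoting complex list, the subunit gene mr was highest at 0.039 and the subunit gene ida was lowest at -0.59, on 5 to 24 reads per library. The checkpoint genes zwilch and rod, which encode subunits of the same kinetochore complex, lay at opposite ends with 0.39 and -0.37. CycC, which encodes a cyclin of the Mediator complex, and Cdk5 were at 0.26 and -0.25 in the last list. The Benjamini-Hochberg adjusted p of edgeR was 0.999 for all of these genes.

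The profiles of the members over the 6 libraries were also compared with those of all other genes tested. Likeness was the root mean square difference of mean-centred log2 CPM from the mean profile of the 10. The closest genes outside the members were Uba2 (0.039), CG14562 (0.039), BRWD3 (0.040), Snx1 (0.049) and me31B (0.054). Among the members CycB was nearest to the mean profile (0.059) and CycB3 farthest from it (0.44), and each member is itself part of that mean. The median difference was 0.21 over the members and 0.29 over the other genes tested. The closest genes are the smallest values among all other genes tested, and a link to the members was not tested.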

How the data were processed

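The authors aligned reads by BWA-PSSM against the fly (dm3) and yeast genomes together and deposited the number of reads overlapping a single gene on its strand as raw counts, 1 column per library; base calling used CASAVA 1.8.2 by the submitters' notes, and the version of BWA-PSSM is not given in the sources used. A further deposited table held gene symbols and a mean signal (counts divided by DESeq size factors). Its symbols were used, and its 9596 genes were all among the 9977 genes of the count table. Its mean signal, fold changes and p-values were not used. The 6 knockdown libraries were analysed; the immunoprecipitation, cross-linking and input samples were not analysed here. A row naming no gene (0% of counts) was left out.

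Tests on counts used edgeR 4.0.16 under R 4.3.3 (quasi-likelihood test after TMM scaling and filterByExpr, Benjamini-Hochberg adjustment at 0.05), which kept 6526 genes. The replicate number was a block, since the study's methods place replicates on different days and treat them as paired; deviations from the group means correlated at 0.30 to 0.48 between same-numbered libraries. Replicates of a group differed beyond sampling noise. The p-values of edgeR set an effect against the spread left between these libraries after replicate number and treatment were fitted. The variance of each gene was moderated toward a trend over all genes. The p-values thus draw on the spread of other genes as well. DESeq2 1.42.0, limma-voom (limma 3.58.1), other scaling, filters, no block and each replicate left out were alternatives. The fits were also run on simulated counts with the same dispersion for every gene, and no result here rests on that run. BDGP6 gave lengths and positions. Levels per kilobase used the joined exons of each gene.

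Members and lists were chosen with earlier results of these data known. Named genes are the members, Imp, the highest and lowest log2 fold change of each list, any listed gene or marker called between days (up to 3 a list), and the 5 genes closest to the members' mean profile. Single markers are also named where a marker sum is described, and wee and twe are named beside Myt1.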

Additional observations from a re-analysis of the deposited data

How the results depend on the processing

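No member and no gene of the wider list was called after imp dsRNA under any alternative. Over all genes edgeR called 0 (188 at an unadjusted p under 0.05), DESeq2 called 1 (65 unadjusted), limma-voom 0 (197 unadjusted), edgeR with no filter 4, and with a replicate left out between 0 and 58, the highest without replicate 3. Without the replicate block 72 genes had an unadjusted p under 0.05, and dap moved from 0.070 to -0.018. Of 90 alternative estimates of the members' log2 fold changes 85 kept their sign. With a replicate left out CycA ran from -0.31 to 0.075, CycD from -0.23 to 0.15, CycE from -0.25 to 0.36, dap from -0.30 to 0.30, and the members' median from -0.25 to 0.034. Between days the members called numbered 0, but 1 with no filter, 1 with no treatment term and 0 to 1 with a replicate left out. For the wider list these numbers were 0, 4, 1 and 0 to 5. Over all genes 207 were called between days, 512 with no filter and between 73 and 863 with a replicate left out. The causes were not tested. The shallow imp dsRNA replicates 2 and 3 limit CycB3 and aur, with 21 to 36 reads there.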
